A study of Mus musculus with 5 samples.

Results

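The Notch ligands *Dll4*, *Jag1* and *Jag2*, the receptors *Notch1*, *Notch3* and *Notch4* and the targets *Hes1*, *Hey1*, *Heyl* and *Nrarp* were examined in brain microvascular fragments of hyperglycemic and control mice. These 10 genes were chosen by symbol, by matching the 37982 Ensembl gene identifiers of the data to the annotation of mouse assembly NCBIM37, and each matched 1 identifier. RNA sequencing had been performed on 3 wild-type (WT) littermates and 2 heterozygous Ins2-AKITA mice, all males on the C57Bl/6-J background, sacrificed between 26 and 38 weeks of age, with 1 library per mouse. In Ins2-AKITA mice 1 copy of *Ins2*, which encodes insulin 2, is mutated in the whole animal, and hyperglycemia follows from loss of insulin made by the pancreas, so that vessel cells are not targeted as such. Fragments were captured with beads against PECAM1, an endothelial surface protein, and therefore hold endothelium plus adhering mural cells and end-feet of astrocytes. The values are FPKM, fragment counts divided by exon length and by the mapped reads of the library, which allow levels of different genes to be compared. The question addressed was whether long hyperglycemia changes gene expression of the brain vasculature.

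Notch signaling passes between touching cells. A ligand on a cell (DLL4, JAG1 or JAG2) binds a Notch receptor on its neighbour, the receptor is cut by proteases, and the freed intracellular part moves to the nucleus, where it joins the DNA-binding protein RBPJ and switches on repressors of the HES and HEY families as well as *Nrarp*, a feedback inhibitor. In vessels, DLL4 with NOTCH1 and NOTCH4 is known for restraining sprouting and for arterial identity of the endothelium, while NOTCH3 and its target *Heyl* are known from smooth muscle cells and pericytes.

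RefSeq promoter sequences (assembly GRCm38.p6) were available for 7 of the 10 genes, but not for the targets *Hes1*, *Hey1* and *Heyl*. The sequences of *Dll4*, the gene whose genotypes were furthest apart relative to their spread, and of *Nrarp*, the target with the highest fold change, are shown. The 250 bases before the start of transcription were read 5′ to 3′ on the gene's strand and searched on both strands for the RBPJ core TGGGAA, the palindromic E-box CACGTG and the ETS core GGAA, which TGGGAA contains; capitals mark matches.
Dll4 (chr2:119325534-119325783, plus strand): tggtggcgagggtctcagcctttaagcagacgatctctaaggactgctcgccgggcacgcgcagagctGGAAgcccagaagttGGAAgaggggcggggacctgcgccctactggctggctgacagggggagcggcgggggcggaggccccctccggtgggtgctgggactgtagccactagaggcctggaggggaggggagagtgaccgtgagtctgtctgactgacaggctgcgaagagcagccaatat
Nrarp (chr2:25180508-25180757, plus strand): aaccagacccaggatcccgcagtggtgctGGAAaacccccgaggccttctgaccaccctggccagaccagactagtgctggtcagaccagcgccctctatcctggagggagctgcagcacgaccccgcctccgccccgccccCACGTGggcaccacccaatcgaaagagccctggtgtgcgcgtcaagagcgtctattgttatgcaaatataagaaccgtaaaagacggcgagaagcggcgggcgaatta
The *Dll4* stretch holds 2 ETS cores and neither of the other motifs. The *Nrarp* stretch holds 1 ETS core and 1 E-box, whose first base lies 108 bases before the start. None of the 7 stretches holds TGGGAA, against 21.6% of all 32851 promoters in the table, while 6.02% of them hold the E-box and 93.4% an ETS core. With 7 stretches the absence of TGGGAA cannot be told from that share. *Nrarp* was the only target searched, so nothing follows for the other targets.

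The number of sequenced fragments behind the values was estimated from the steps between low FPKM values. It was between 1127049 and 2850809 per mouse and highest in WT replicate 3. Across protein-coding genes, WT replicate 1 was the library least like the others (Pearson r across genes on log2(FPKM + 1) of 0.885 to 0.912, against 0.905 to 0.945 among the other mice). The libraries did not group by genotype. WT replicate 3 was most like Ins2-AKITA replicates 2 (0.945) and 1 (0.934), while the highest value within a genotype was 0.928. Transcripts of *Ins2* were at an FPKM of 0 in every mouse but WT replicate 3 (1.51), so brain vessels give no check of the genotype. No label ties a WT mouse to an Ins2-AKITA mouse, and the 3 and 2 mice are the replicates.

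All members of the marker lists were measured, and the endothelial and mural identity of the samples was checked with them. The 10 endothelial markers summed to an FPKM of 402 to 701 in WT against 338 to 426 in Ins2-AKITA mice, with overlap of the sums and a lower mean in Ins2-AKITA mice for 10 of 10 genes. The 7 markers of arterial endothelium summed to 65.2 to 98.6 in WT against 44.6 to 58.9 in Ins2-AKITA mice, but only 2 of these 7 genes were lower in both Ins2-AKITA mice than in every WT mouse. The arterial list holds *Sema3g*, which the paper reported as lower in Ins2-AKITA mice, and *Efnb2*, also a Notch target in the lists used here. Smooth muscle markers summed to 279 to 313 and 170 to 223, and 6 of these 7 genes were lower in both Ins2-AKITA mice than in every WT mouse. Both sums were thus separate between the genotypes, with means 32.9% and 33.3% lower in Ins2-AKITA mice. Pericyte markers (8 genes) overlapped, with 203 to 254 in WT against 174 to 225 in Ins2-AKITA mice. In the opposite direction, the 7 astrocyte markers summed to 2118 to 2927 in WT against 3338 to 3933 in Ins2-AKITA mice. Of these, 4 genes were higher in both Ins2-AKITA mice than in every WT mouse. Lower in both were also 3 of the 10 endothelial and 2 of the 8 pericyte markers. No endothelial, arterial, mural or astrocyte marker was separated the other way. Over all 16286 genes tested, both Ins2-AKITA values lay below all WT values in 10.3% and above them in 9.24%. Markers of neurons (8 genes, 799 to 883 and 808 to 968) and oligodendrocytes (7 genes, 1997 to 2656 and 2131 to 2333) were also present and overlapped between the genotypes, as did those of microglia (7 genes, 118 to 162 and 122 to 133) and fibroblasts (5 genes, 25.9 to 29.9 and 29.1 to 32.1). The 5 erythroid markers summed to 35.1 to 67.7 in WT against 25.1 to 32.4 in Ins2-AKITA mice, without overlap. No marker of endothelium, mural cells or astrocytes was at 0 in any mouse; *Lum* and *Hbb-b2* were at 0 in Ins2-AKITA replicate 2. In such samples fewer cells of a type and less RNA per cell cannot be told apart, and the part of these marker differences in the results on Notch genes was not tested.

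**Figure D1:**
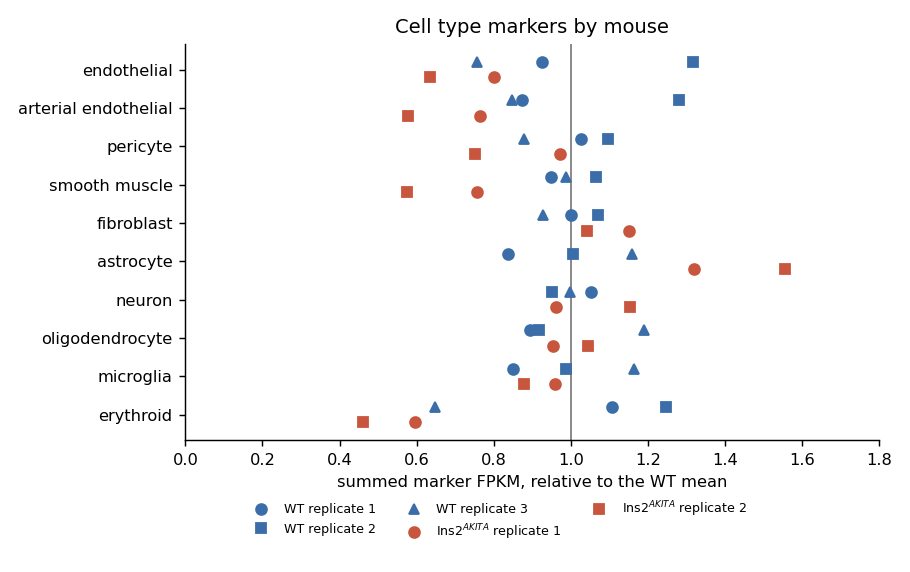
Summed FPKM of each marker list in each mouse, divided by the WT mean of that list (x axis, no unit); blue symbols are WT and red symbols Ins2-AKITA mice. Smooth muscle and arterial endothelial sums are lower in both Ins2-AKITA mice than in all WT mice, and astrocyte sums are higher.

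All 10 Notch genes reached the minimum mean FPKM of 1 and were therefore among the 16286 gene symbols tested. In WT mice *Notch1* had the highest mean FPKM (26.7 ± 9.41, SD, n = 3), followed by *Jag2* (24.3 ± 4.63), *Notch4* (20.5 ± 18.2), *Hey1* (18.6 ± 3.92), *Notch3* (16.8 ± 2.15), *Nrarp* (16.4 ± 4.71), *Jag1* (12.9 ± 6.87), *Heyl* (9.54 ± 0.998), *Hes1* (8.83 ± 5.38) and *Dll4* (7.90 ± 0.526). For each pair of neighbours in this order the WT ranges overlapped, so that the order is not resolved from gene to gene. The ends of the order were apart, since the highest *Dll4* value (8.24) lay below the lowest *Notch1* value (20.7). *Dll4* and *Heyl* were the steadiest between WT mice, with 1.13-fold and 1.23-fold between the lowest and the highest mouse, and *Notch4* (4.37-fold), *Jag1* (3.53-fold) and *Hes1* (2.80-fold) varied most. WT replicate 1 was over 2-fold above both other WT mice for *Notch4* and *Hes1* and over 2-fold below both for *Jag1*. Over all genes tested, WT replicate 1 was so far above in 6.1% and below in 4.99%. WT replicate 2 had 4.51% and 3.37%, and WT replicate 3 had 2% and 8.49%.

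**Figure D2:**
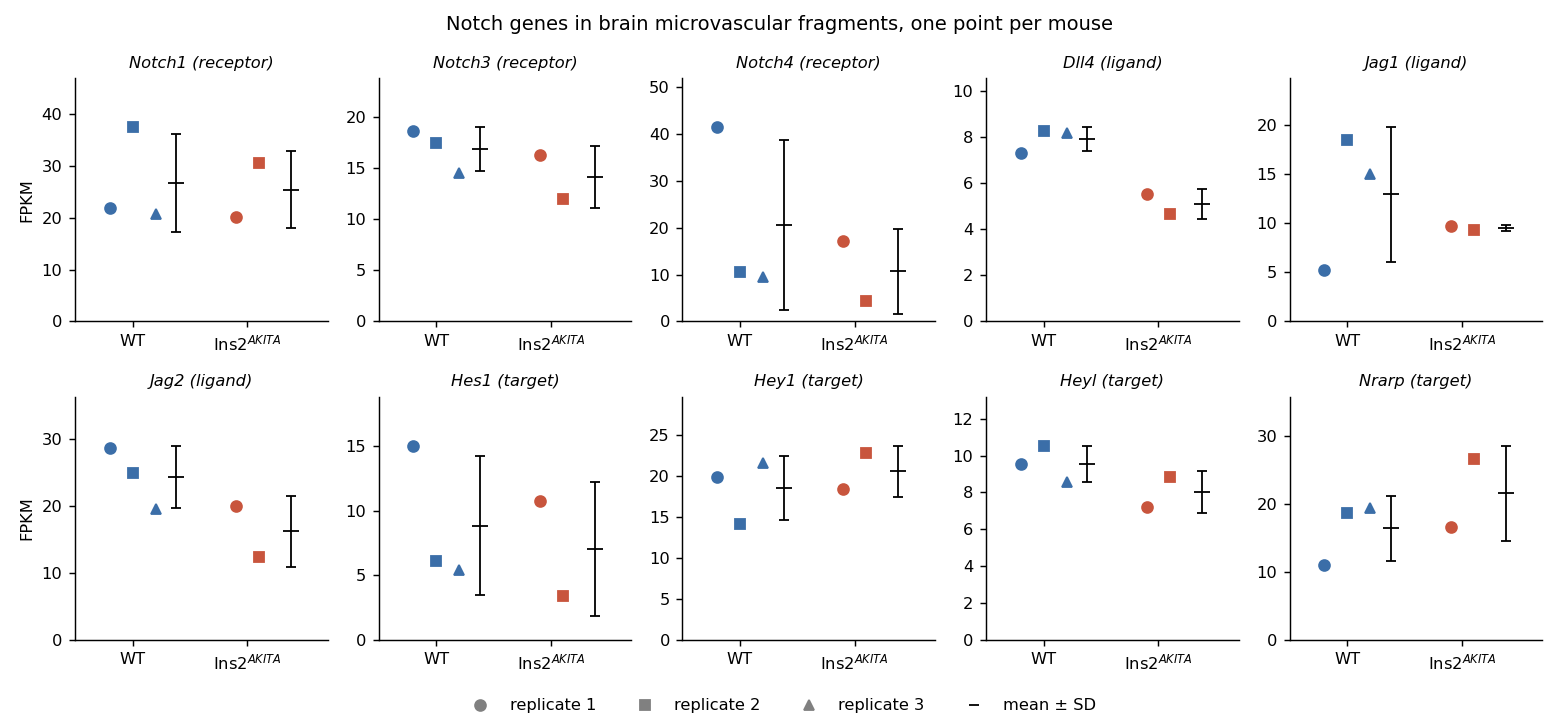
FPKM of the 10 Notch genes (y axes, linear from 0, a scale for each gene) in 3 WT and 2 Ins2-AKITA mice; symbols mark the replicate number, and black bars the mean ± SD of each genotype. *Dll4* is the gene whose genotypes do not overlap, while WT replicate 1 stands apart from the other WT mice for *Notch4*, *Hes1* and *Jag1*, and the 2 Ins2-AKITA mice lie far apart for *Notch4* and *Hes1*.

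None of the 10 genes passed an adjusted p of 0.05 in limma (adjusted p from 0.90 to 0.99), beside 0 of 16286 genes called higher (0.0%) and 4 called lower (0.0246%) by the same rule. At an unadjusted p under 0.05 there was also no Notch gene, against 1.53% of all genes higher and 2.93% lower. Mean log2(FPKM + 1) was lower in Ins2-AKITA mice for 8 of the 10 and higher for *Hey1* and *Nrarp*, where 53.5% of all genes were lower. With all mice scaled to the same FPKM sum (TPM) the 10 fold changes were all positive, between 0.54 and 1.64, while the median of all genes moved to 1.07. Protein-coding genes made up 3.09%, 3.20% and 11.0% of the FPKM sum in WT against 9.76% and 27.5% in Ins2-AKITA mice. The median log2 fold change of the 10 genes was -0.25, beside -0.03 over all genes tested. For 1 of the 10 genes, *Dll4*, both Ins2-AKITA values lay below all WT values, and for none above. Over all genes this held for 10.3% and 9.24%, and 10 genes are too few to tell either count from these shares. With 3 against 2 mice an exact permutation test cannot give a p below 0.1, and all p-values measure the spread between these 5 mice.

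**Figure D3:**
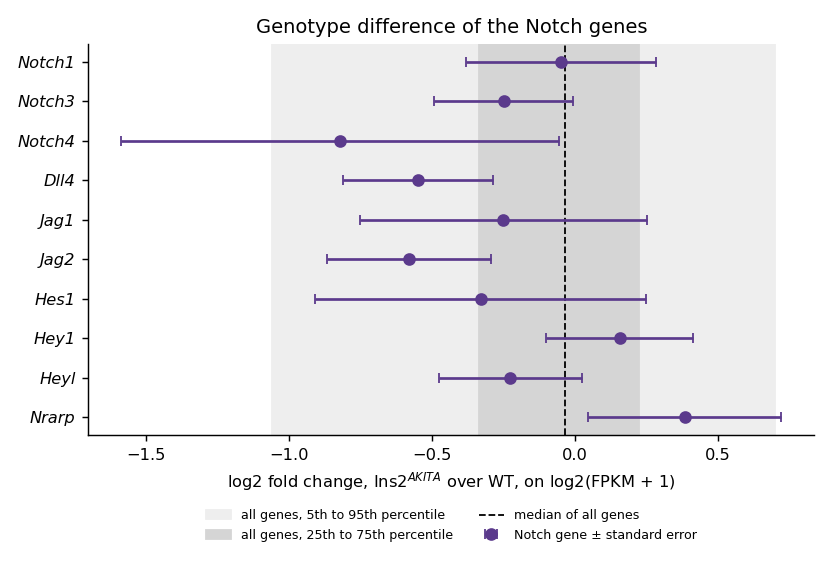
Log2 fold change on log2(FPKM + 1), Ins2-AKITA over WT, of each Notch gene (points, bars are the standard error from limma) with the middle of all 16286 genes in grey and their median of -0.03 dashed. The fold changes run from -0.82 (*Notch4*) to 0.38 (*Nrarp*) and all lie between the 5th and 95th percentile of all genes.

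Among the ligands, *Dll4* showed the clearest separation of the genotypes. *Dll4* (ENSMUSG00000027314, NCBIM37 chromosome 2 from 119151520 to 119161698, plus strand), the endothelial ligand of tip cells and arteries, stood at 7.30, 8.24 and 8.17 FPKM in WT (replicates 1, 2 and 3) against 5.54 and 4.64 in Ins2-AKITA replicates 1 and 2. Both Ins2-AKITA mice were below all WT mice, and the difference of the means (7.90 ± 0.526, n = 3, and 5.09 ± 0.639, n = 2) was larger than the SD of either genotype. The mean was 1.55-fold lower in Ins2-AKITA mice, with a log2 fold change of -0.55 (SE 0.26, limma p = 0.078, adjusted p = 0.90, exact two-sided permutation p = 0.1). Few fragments stood behind these values, at most an estimated 31, 39 and 84 in WT against 23 and 22 in Ins2-AKITA mice. Exact Poisson 95% intervals for counting error, computed from these upper limits, ran from 4.97 to 10.4 FPKM in WT replicate 1 and from 3.57 to 8.44 in Ins2-AKITA replicate 1. In WT replicate 3 and Ins2-AKITA replicate 2, the deepest WT library and the lowest value, they ran from 6.48 to 10.1 and from 2.96 to 7.14. With fewer fragments than the upper limits the intervals would be wider. A gene on the other strand, *Gm14207*, overlaps *Dll4*, and opposite-strand genes also overlap the 3 receptor genes. The sources used here do not state whether strand was used in counting.

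The sum of the endothelial markers had a mean 28.3% lower in Ins2-AKITA mice, with Ins2-AKITA replicate 1 (426) above WT replicate 3 (402). Relative to the summed FPKM of the 10 endothelial markers, *Dll4* stood at 1.48%, 1.17% and 2.03% in WT against 1.30% and 1.37% in Ins2-AKITA mice. On this scale both Ins2-AKITA mice lay within the WT range (exact two-sided permutation p = 0.7). With every mouse scaled to this sum the log2 fold change of *Dll4* was -0.17 (adjusted p = 0.89 from limma), while the median of all genes moved to 0.36. Relative to the 7 arterial markers, *Dll4* stood at 10.8%, 8.35% and 12.5% in WT against 9.41% and 10.4% in Ins2-AKITA mice, again with overlap.

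*Jag2* (ENSMUSG00000002799, chromosome 12 from 114146801 to 114167706, minus strand), a Jagged ligand of endothelial and other cells, was the most abundant of the 3 ligands. It had 28.6, 24.9 and 19.4 FPKM in WT against 19.9 and 12.4 in Ins2-AKITA mice. Ins2-AKITA replicate 2 lay below all WT mice and replicate 1 just above WT replicate 3. Limma gave a log2 fold change of -0.58 (SE 0.29, unadjusted p = 0.087, adjusted p = 0.90, exact permutation p = 0.3). *Jag2* has 1 annotated transcript, so its fragments could be counted back as 128, 126 and 212 in WT against 86 and 61 in Ins2-AKITA mice. The Poisson interval of Ins2-AKITA replicate 2 (9.48 to 15.9 FPKM) lay below that of every WT mouse, of which WT replicate 3 had the lowest (16.9 to 22.2). That of Ins2-AKITA replicate 1 (15.9 to 24.6) did not. Relative to the endothelial markers the difference was small, with 5.81%, 3.56% and 4.83% in WT against 4.68% and 3.67% in Ins2-AKITA mice.

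*Jag1* (ENSMUSG00000027276, chromosome 2 from 136907192 to 136942380, minus strand), the ligand made by endothelium and arterial smooth muscle, differed mainly between WT mice. It had 5.25, 18.5 and 15.0 FPKM in WT against 9.72 and 9.31 in Ins2-AKITA mice, so that the Ins2-AKITA values fell into the gap between WT replicate 1 and the other WT mice. Its log2 fold change was -0.25 (SE 0.50, unadjusted limma p = 0.63, exact permutation p = 0.8). It was -0.75 without WT replicate 1 (adjusted p = 0.98 from limma), and it turned to 0.07 without WT replicate 2. The low value of WT replicate 1 rested on at most an estimated 34 fragments, and its interval for counting error (3.60 to 7.26 FPKM) lay below those of the other WT mice (15.6 to 21.9 and 13.2 to 17.1). These intervals were computed from upper limits of the fragments and would be wider with fewer.

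Of the receptors, *Notch1* (ENSMUSG00000026923, chromosome 2 from 26313423 to 26372183, minus strand), the main endothelial receptor, had the most fragments and the smallest fold change. Its FPKM was 21.8, 37.5 and 20.7 in WT against 20.1 and 30.6 in Ins2-AKITA mice. Ins2-AKITA replicate 1 lay just below all WT mice and replicate 2 among them. Limma gave a log2 fold change of -0.05 (SE 0.33, unadjusted limma p = 0.89, exact permutation p = 0.8), and its sign turned with WT replicate 2 left out (0.22) or Ins2-AKITA replicate 1 left out (0.24). Relative to the endothelial markers *Notch1* stood between 4.42% and 5.35% in 4 of the 5 mice and at 9.07% in Ins2-AKITA replicate 2.

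*Notch3* (ENSMUSG00000038146, chromosome 17 from 32257765 to 32303825, minus strand), the receptor of mural cells, had 18.6, 17.4 and 14.4 FPKM in WT against 16.2 and 11.9 in Ins2-AKITA mice. Ins2-AKITA replicate 1 fell inside the range of the WT mice and replicate 2 below it. With 1 annotated transcript, these values came from 170, 180, 322, 143 and 120 fragments. Its log2 fold change was -0.25 (SE 0.24, unadjusted limma p = 0.34, exact permutation p = 0.4). The mean of *Notch3* was 1.20-fold higher in WT, beside the smooth muscle marker sum that was 33.3% lower in Ins2-AKITA mice. As a percentage of the summed smooth muscle markers it was 6.67%, 5.57% and 4.97% in WT against 7.27% and 7.03% in Ins2-AKITA mice, with both Ins2-AKITA mice above all WT mice (exact permutation p = 0.2). That sum was itself lower in both Ins2-AKITA mice than in all WT mice, which raises any gene divided by it. The share of all genes with such a separation on this scale was not computed. Relative to pericyte and smooth muscle markers together *Notch3* was at 3.60%, 3.08% and 2.93% in WT against 3.62% and 3.48% in Ins2-AKITA mice, which overlap.

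*Notch4* (ENSMUSG00000015468, chromosome 17 from 34701213 to 34725448, plus strand), a receptor largely restricted to endothelium, had the most negative fold change and the widest spread. It had 41.5, 10.6 and 9.50 FPKM in WT against 17.1 and 4.30 in Ins2-AKITA mice. The spread within WT (4.37-fold) and within Ins2-AKITA mice (3.97-fold) exceeded the difference of the means (0.521-fold in Ins2-AKITA over WT). Limma gave a log2 fold change of -0.82 (SE 0.77, limma p = 0.32, adjusted p = 0.90, exact permutation p = 0.6). It was -0.17 without WT replicate 1, -1.71 without Ins2-AKITA replicate 1 and 0.06 without Ins2-AKITA replicate 2. The gene has 12 annotated transcripts, and the deposited value does not show from which of them the fragments came.

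Among the targets, *Hes1* (ENSMUSG00000022528, chromosome 16 from 30064470 to 30067882, plus strand), a transcriptional repressor made by many cell types, had 15.0, 6.09 and 5.37 FPKM in WT against 10.7 and 3.36 in Ins2-AKITA mice. The 5 mice stood in the same order as for *Notch4*, with WT replicate 1 highest, then Ins2-AKITA replicate 1, WT replicate 2, WT replicate 3 and Ins2-AKITA replicate 2. Of all genes tested 332 (2.04%) had this order, and comparing the order of these 2 genes was not planned in advance. The values overlapped between the genotypes (log2 fold change -0.33, SE 0.58, unadjusted limma p = 0.59, exact permutation p = 0.7), and the sign turned without WT replicate 1 (0.09) or without Ins2-AKITA replicate 2 (0.38). *Hes1* rested on the fewest fragments of the 10 genes when the mice are added up, at most an estimated 32, 15, 28, 22 and 8. In Ins2-AKITA replicate 2 the interval for counting error spanned 1.48 to 6.77 FPKM, which reaches the values of WT replicates 2 and 3.

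*Hey1* (ENSMUSG00000040289, chromosome 3 from 8663362 to 8667039, minus strand), a repressor of arterial endothelium, had 19.9, 14.2 and 21.7 FPKM in WT against 18.4 and 22.8 in Ins2-AKITA mice. Its values came from 46, 37, 122, 41 and 58 fragments. They overlapped between the genotypes, with a log2 fold change of 0.16 (SE 0.26, unadjusted limma p = 0.57, exact permutation p = 0.7). Without WT replicate 2 it was -0.02. Relative to the endothelial markers, *Hey1* stood at 4.04%, 2.02% and 5.38% of the sum in WT and at 4.32% and 6.76% in Ins2-AKITA mice.

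*Heyl* (ENSMUSG00000032744, chromosome 4 from 122910799 to 122927118, plus strand), the HEY family member of mural cells, had 9.53, 10.5 and 8.55 FPKM in WT against 7.20 and 8.84 in Ins2-AKITA mice. Ins2-AKITA replicate 1 lay below all WT mice and replicate 2 among them. Its log2 fold change was -0.23 (SE 0.25, unadjusted limma p = 0.40, exact permutation p = 0.3). Relative to pericyte and smooth muscle markers, *Heyl* was at 1.85%, 1.86% and 1.73% in WT against 1.61% and 2.58% in Ins2-AKITA mice, on either side of the narrow WT range.

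*Nrarp* (ENSMUSG00000078202, chromosome 2 from 25036278 to 25038850, plus strand), which shortens Notch signaling by acting on the intracellular receptor, had the highest fold change of the 10 genes. It had 10.9, 18.7 and 19.4 FPKM in WT against 16.6 and 26.5 in Ins2-AKITA mice. Ins2-AKITA replicate 2 was above all WT mice and replicate 1 within their range. Limma gave a log2 fold change of 0.38 (SE 0.34, limma p = 0.30, adjusted p = 0.90, exact permutation p = 0.6), and 0.13 without WT replicate 1 or 0.06 without Ins2-AKITA replicate 2. The fragments numbered 30, 58, 130, 44 and 80. The interval of Ins2-AKITA replicate 2 (21.0 to 33.0 FPKM) overlapped those of WT replicates 2 and 3 (14.2 to 24.2 and 16.2 to 23.1). As a share of the endothelial markers *Nrarp* was 2.22%, 2.67% and 4.83% in WT against 3.91% and 7.85% in Ins2-AKITA mice.

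Of the 4 targets *Hes1* and *Heyl* had negative and *Hey1* and *Nrarp* positive fold changes, none past the threshold, and all 4 were positive when scaled to the endothelial markers. Scaled to the endothelial markers, the log2 fold changes of the 10 genes lay between -0.43 (*Notch4*) and 0.81 (*Nrarp*) around a median of all genes of 0.36, and *Notch1*, *Notch3*, *Jag1*, *Hes1* and *Heyl* turned from negative to positive. None of them passed an adjusted p of 0.05 on this scale either.

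**Figure D4:**
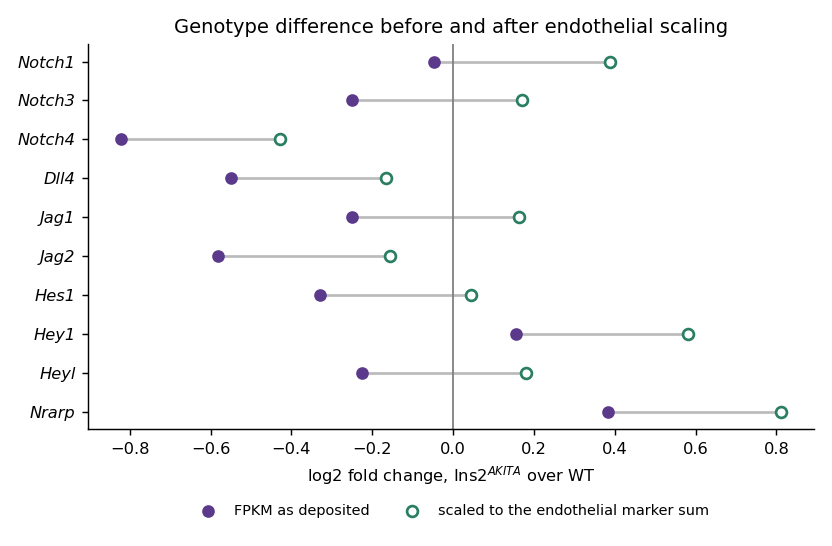
Log2 fold change (x axis, Ins2-AKITA over WT) of each Notch gene with the FPKM as deposited (filled) and with every mouse scaled to its summed endothelial markers (open). Scaling moves all 10 genes to the right, *Dll4* from -0.55 to -0.17 and *Jag2* from -0.58 to -0.16, while *Nrarp* reaches 0.81.

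Ratios of a pair of genes within a mouse do not depend on how the mice are scaled, and 7 of them were compared. WT replicate 1 stood apart in the balance of the ligands. The FPKM of *Dll4* was 1.39 times that of *Jag1* in this mouse and 0.445 to 0.570 times in the other 4, and that of *Jag2* was 5.46 times that of *Jag1*, against 1.29 to 2.05. For the receptors, *Notch4* was at 1.90 times *Notch1* in WT replicate 1, 0.849 in Ins2-AKITA replicate 1 and 0.140 to 0.459 in the others, and *Notch3* between 0.390 and 0.854 times *Notch1* in all 5 mice. *Nrarp* was at 0.728, 3.07 and 3.62 times *Hes1* in WT against 1.55 and 7.90 in Ins2-AKITA mice. *Hey1* was at 1.33 to 4.03 times *Hes1* in WT against 1.72 and 6.80 in Ins2-AKITA mice, and *Heyl* at 0.634 to 1.73 and 0.672 and 2.63 times. The values of all 7 ratios overlapped between the genotypes (exact two-sided permutation p from 0.6 to 0.9, adjusted p = 0.9 for all 7 by the Benjamini-Hochberg method). The smallest p this permutation test can give with these mice is 0.1. Even a full separation could therefore not have passed the threshold, and the test cannot decide whether a ratio differs.

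The wider pathway was followed with 66 further genes in 8 classes, of which 61 reached the minimum mean FPKM. None passed an adjusted p of 0.05 in limma (smallest 0.90), 30 had a lower and 31 a higher mean log2 value, and the median log2 fold change was 0.04, beside -0.03 over all genes. At an unadjusted p under 0.05 there was 1 gene, lower in Ins2-AKITA mice, against the 2.93% of all genes. In 9 genes both Ins2-AKITA mice lay below all WT mice and in 3 above, beside 10.3% and 9.24% of all genes. The 1 gene was *Numbl*, whose protein is related to the Notch inhibitor NUMB, with 25.2, 27.5 and 23.0 FPKM in WT against 17.2 and 17.0 in Ins2-AKITA mice (log2 fold change -0.53, SE 0.20, limma p = 0.033, adjusted p = 0.90, exact permutation p = 0.1). *Numb* itself had a log2 fold change of 0.48 (SE 0.39), with WT replicate 1 at 10.6 FPKM and the other 4 mice between 19.3 and 27.7.

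The 5 genes that attach sugars to the Notch receptors (the fringes *Lfng*, *Mfng* and *Rfng*, and *Pofut1* and *Poglut1*) all had lower means in Ins2-AKITA mice, with log2 fold changes from -0.44 to -0.26, and none passed the test at an unadjusted p of 0.05. Their median was -0.32 as deposited, 0.10 when scaled to the endothelial markers and 1.04 with TPM, beside -0.03, 0.36 and 1.07 over all genes. *Rfng*, the most abundant of them, had 29.3, 24.5 and 17.7 FPKM in WT against 17.0 and 22.0 in Ins2-AKITA mice. *Lfng*, *Mfng* and *Poglut1*, named here after their values were seen, were lower in both Ins2-AKITA mice than in all WT mice, which held for 10.3% of all genes. For *Lfng* the values were 17.9, 20.3 and 17.2 FPKM in WT against 15.5 and 13.6 in Ins2-AKITA mice. For *Mfng* they were 5.06, 5.08 and 5.21 in WT against 5.05 and 2.37, so that Ins2-AKITA replicate 1 barely differed from WT.

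All 4 genes of ligand endocytosis had higher means (log2 fold change 0.13 to 0.27), none past the test, and so they had under each other scaling. Scaling by TPM, by endothelial markers or by mural markers moved the median of all genes up, to 1.07, 0.36 and 0.33. A positive sign kept under these scalings therefore adds nothing. *Neurl1a*, a ubiquitin ligase and the most abundant of the 4 genes, had 64.2, 66.1 and 87.0 FPKM in WT against 70.8 and 94.7 in Ins2-AKITA mice. Of the 10 proteases and γ-secretase subunits 8 had higher means, with a median of 0.14 and none past the test. *Psenen*, a subunit of γ-secretase, was the most abundant of them, with 28.4, 32.2 and 26.7 FPKM in WT against 39.9 and 31.5 in Ins2-AKITA mice. In the nuclear complex (8 genes, median -0.10 as deposited and 0.30 when scaled to the endothelial markers, where all genes had 0.36) *Kat2b*, an acetyltransferase, led with 57.0, 39.2 and 34.9 FPKM in WT against 52.6 and 40.9 in Ins2-AKITA mice. *Rbpj*, the DNA-binding partner of all receptors, was at 7.16 to 8.62 FPKM in WT against 7.85 and 7.63 in Ins2-AKITA mice (named after its values were seen).

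The largest fold changes of the wider pathway were found in genes that varied between mice. *Hes5*, a HES repressor known from neural progenitors and glia, had the highest (1.08, SE 0.72, unadjusted limma p = 0.18, exact permutation p = 0.5), with 2.45, 16.6 and 14.0 FPKM in WT against 24.3 and 15.6 in Ins2-AKITA mice. The astrocyte markers summed to 2118, 2543 and 2927 FPKM in WT against 3338 and 3933 in Ins2-AKITA mice, and a link to *Hes5* was not tested. *Bhlhe41*, a repressor also known from the circadian clock, followed with 0.52. At the other end, the ligand *Dll1* (-1.09, SE 0.47, unadjusted limma p = 0.056, exact permutation p = 0.3) had 12.7, 9.05 and 5.32 FPKM in WT against 5.38 and 2.14 in Ins2-AKITA mice, with Ins2-AKITA replicate 1 just above WT replicate 3. *Tle2*, a Groucho corepressor, had -1.08, and its Ins2-AKITA mice differed by more than the genotypes (33.7 and 7.86 FPKM, against 43.6, 51.4 and 21.0 in WT). *Gata3*, a transcription factor, had -0.93 and was near the limit of the filter, at 0.775 to 2.05 FPKM in WT against 0.297 and 0.260 in Ins2-AKITA mice. The most abundant genes of the other classes had log2 fold changes of 0.23 for the corepressor *Ncor1*, -0.16 for the ubiquitin ligase *Dtx3*, -0.47 for the target *Id1* and 0.13 for the contactin *Cntn1*.

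**Figure D5:**
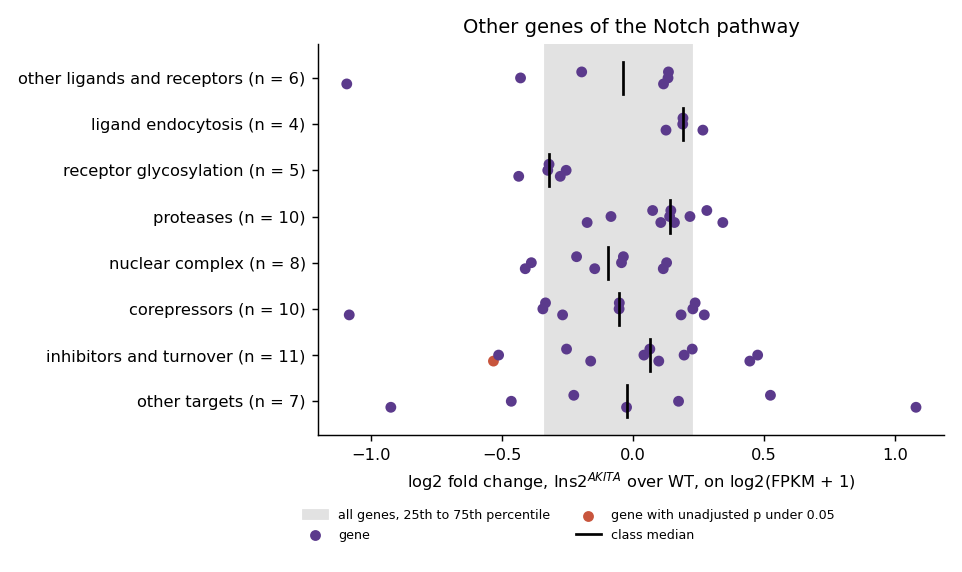
Log2 fold change on log2(FPKM + 1), Ins2-AKITA over WT, of 61 other Notch pathway genes by class (points, staggered for legibility); black bars are class medians and grey the middle of all genes. The 1 gene with an unadjusted p under 0.05 is *Numbl* (red), and the 5 glycosylation genes all lie left of 0 with the FPKM as deposited (median -0.32); scaled to the endothelial markers their median is 0.10, where that of all genes is 0.36.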

How the data were processed

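The authors depleted ribosomal RNA, made stranded total RNA libraries, mapped reads to NCBIM37 with TopHat2 (2.0.4), removed duplicates with Picard (1.92) and tested with Cufflinks (2.2.1), per the labels. They deposited FPKM per Ensembl gene and mouse; the program for single mice and the Ensembl release are not given in the sources used here. Duplicate removal can lower abundant short genes.

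Identifiers were matched to GENCODE vM1 (37197 of 37982), and rows sharing a symbol were summed (34615 symbols). Symbols averaging 1 FPKM or more (16286) were tested on log2(FPKM + 1), which understates changes of low genes, with limma 3.58.1 in R 4.3.3 (genotype only, eBayes with a trend, two-sided, Benjamini-Hochberg, threshold 0.05). The fit was tested on simulated data. Exact permutation tests used all 10 splits of the mice. Fragments were estimated from genes with 1 transcript as the step that makes FPKM times (exon length minus a fragment offset) whole; 97.5% to 98.2% of low values per mouse lay within 0.05 of a whole number. For genes with several transcripts the exon union gives an upper limit. Poisson intervals cover counting error only, and where the fragments are an upper limit they are the narrowest possible. The members and lists were chosen with earlier results of these data known. Of the wider pathway, genes were named when among the 3 highest or 3 lowest fold changes, at an unadjusted p under 0.05 or most abundant in a class. Alternatives are given in the closing section.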

Additional observations from a re-analysis of the deposited data

How the results depend on the processing

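No Notch gene passed an adjusted p of 0.05 under any alternative (adjusted p from limma between 0.27 and 1). *Nrarp* kept its direction throughout, and *Dll4* and *Jag2* did so under all alternatives but TPM. The number of Notch genes lower at an unadjusted p under 0.05 was 0 to 1 with a mouse left out (*Jag1* without WT replicate 1, *Jag2* without Ins2-AKITA replicate 1).

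Scaling to an equal sum (TPM) put the median over all genes at a log2 fold change of 1.07 and over the wider pathway at 1.26. All genes past the adjusted threshold numbered 58 higher and 30 lower, and 1808 and 105 at the unadjusted one. *Notch1* became 1.42, *Notch3* 1.10, *Notch4* 0.54, *Dll4* 0.59, *Jag1* 0.89, *Jag2* 0.89, *Hes1* 0.77 and *Heyl* 0.97. Scaling to the endothelial marker sum (median of all genes 0.36, wider pathway 0.47) gave 1 higher and 7 lower genes, and 614 and 183 unadjusted. *Notch1* became 0.39, *Notch3* 0.17, *Jag1* 0.16, *Hes1* 0.044 and *Heyl* 0.18. Scaling to the mural marker sum, chosen after seeing the data (median 0.33, wider pathway 0.44), gave 1341 and 169 unadjusted, with *Notch1* at 0.36, *Notch3* 0.14, *Jag1* 0.13, *Hes1* 0.021 and *Heyl* 0.15. These reversals went with the shift of all genes. A constant prior gave 1 higher and 2 lower genes, and no filter or a minimum of 5 gave 2 lower. A pseudocount of 0.1, median-ratio scaling and scaling to the protein-coding sum moved no count by over 1.5 times and turned no Notch gene.

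The labels number the mice without pairing them, and the deviations of the 2 Ins2-AKITA mice are exact opposites, so pairing could not be checked. With the replicate block, in which WT replicate 3 has no partner and adds nothing to the genotype difference, there were 440 genes higher and 809 lower unadjusted, with 1 Notch gene, *Notch4* (-1.18, adjusted p = 0.60 from limma). Without WT replicate 3 and with no block there were 494 and 908, and *Notch4* had the same fold change with an adjusted p of 0.67 from limma.

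With a mouse left out, leaving 1 Ins2-AKITA mouse assumed to vary like the WT mice where it was one of them, genes past the adjusted threshold ranged from 0 to 10 higher and 1 to 6 lower, and from 196 to 494 and 311 to 908 unadjusted. The extremes came without WT replicates 2 and 3 and Ins2-AKITA replicate 2. Log2 fold changes ranged from -0.34 to 0.24 for *Notch1*, -0.46 to -0.043 for *Notch3*, -1.71 to 0.064 for *Notch4*, -0.75 to 0.070 for *Jag1*, -0.90 to -0.26 for *Jag2*, -1.04 to 0.38 for *Hes1*, -0.019 to 0.30 for *Hey1*, -0.36 to -0.095 for *Heyl* and 0.062 to 0.70 for *Nrarp*. Log2 ratio differences ranged from -0.71 to 0.12 for *Dll4* to *Jag1*, -0.71 to 0.32 for *Jag2* to *Jag1*, -2.16 to 0.44 for *Notch4* to *Notch1*, -0.74 to 0.31 for *Notch3* to *Notch1*, -0.84 to 1.13 for *Heyl* to *Hes1*, -0.43 to 1.55 for *Hey1* to *Hes1*, -0.37 to 1.98 for *Nrarp* to *Hes1* and, added after seeing the data, -0.37 to 0.020 for *Dll4* to the endothelial markers. Their cause was not tested. Depth limits *Hes1* and *Dll4* most.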

Other observations

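A further 5 genes of the wider pathway stayed below a mean FPKM of 1 and entered no comparison. *Hes2* was listed at 0 in all 5 mice. The ligand *Dll3* had 1.79, 0 and 0.559 FPKM in WT against 0 and 0.489 in Ins2-AKITA mice, *Hes3* had 1.32, 0 and 0.272 in WT against 0.686 and 0 in Ins2-AKITA mice, *Hes7* had 1.08, 0 and 0 in WT against 0.560 and 0 in Ins2-AKITA mice, and *Rbpjl* reached at most 0.485. *Hes3* and *Hes7*, picked after their values were seen, shared the highest value in WT replicate 1 and the second in Ins2-AKITA replicate 1 with *Hes1* and *Notch4*. The share of all genes with this pattern was not computed, so no likeness can be read from it. These values lie near those that single fragments give.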
